A study of Mus musculus with 8 samples.

Results

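The immediate early genes described here are 10 genes, namely the AP-1 subunit genes Fos, Fosb, Fosl2, Jun, Junb and Jund, the transcription factor genes Egr1 and Nr4a1, and Btg2 and Ier2. They were found by matching the RefSeq accession of each array probe to the gene symbol. All 10 were present, by 11 probes of the 55681 probes that are not controls, among 20284 genes with a name and 13607 genes tested. Every one of the 11 probes was well above background on all 8 arrays, so no member was lost to the filter on dim probes. RNA came from mouse spleen natural killer (NK) cells that were enriched magnetically and then sorted by a ChAT-eGFP reporter, a green fluorescent protein that marks cells expressing choline acetyltransferase, the enzyme that makes acetylcholine. The labels give 4 pools of reporter-positive cells (ChAT_positive) and 4 pools of reporter-negative cells (ChAT_negative), and each pool held cells of 2 to 4 mice. All 8 pools share the reporter background and the magnetic enrichment, and the sources used here give no strain, age, treatment or stimulation for any of them. No source states that pools of one group came from separate mice. The p-values therefore rest on the differences among these 8 samples alone, and those may be technical.

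Immediate early genes are transcribed within minutes of a signal at the cell surface, without any new protein being made first. Kinases of the MAP kinase and protein kinase A pathways activate factors already bound at their promoters, such as SRF with its ELK partners and CREB, and the transcripts are then degraded quickly. FOS and JUN family proteins pair through leucine zippers to form the AP-1 dimers that act on later genes, and in lymphocytes the same genes respond to antigen receptors, activating receptors and cytokines, and also to the dissociation and sorting of a tissue.

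Promoter sequence was taken from RefSeq on the GRCm38.p6 assembly, from 250 bases before to 50 bases after each start site. Of the 10 genes, 8 matched the table, and Egr1 and Ier2 had no entry. The promoters of Btg2 and Fosl2, the genes that passed the test below, and of Fos, the best known gene of the group, are printed 5′ to 3′ along the strand of the gene, with capitals on every match to TGACG, the core of the cAMP response element, or TGACGTCA, the full element. Btg2 lies on the minus strand (chr1:134079106-134079405), Fosl2 on the plus strand (chr5:32136222-32136521) and Fos on the plus strand (chr12:85473640-85473939).
Btg2: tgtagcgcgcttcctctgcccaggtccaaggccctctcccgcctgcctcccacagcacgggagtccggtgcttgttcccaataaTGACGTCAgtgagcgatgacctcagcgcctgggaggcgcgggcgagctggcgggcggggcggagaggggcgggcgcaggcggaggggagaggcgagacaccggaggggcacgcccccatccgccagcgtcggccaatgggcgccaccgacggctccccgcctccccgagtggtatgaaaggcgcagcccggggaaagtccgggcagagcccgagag
Fosl2: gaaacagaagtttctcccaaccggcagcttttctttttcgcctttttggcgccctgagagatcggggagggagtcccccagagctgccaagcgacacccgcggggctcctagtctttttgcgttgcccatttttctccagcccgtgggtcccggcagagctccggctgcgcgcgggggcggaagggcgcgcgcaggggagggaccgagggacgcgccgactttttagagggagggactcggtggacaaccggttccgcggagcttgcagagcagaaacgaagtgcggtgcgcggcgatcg
Fos: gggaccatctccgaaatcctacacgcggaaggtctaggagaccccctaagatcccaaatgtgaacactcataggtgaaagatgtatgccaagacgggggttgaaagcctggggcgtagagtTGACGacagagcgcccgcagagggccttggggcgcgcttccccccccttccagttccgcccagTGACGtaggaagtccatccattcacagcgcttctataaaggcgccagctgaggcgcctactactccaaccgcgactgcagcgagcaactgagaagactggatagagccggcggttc
Both strands were searched for 4 motifs. The full element TGACGTCA was found in 1 of the 8 promoters, that of Btg2, where its first base lies 166 bases before the start, and in 1.79% of all 32851 promoters of the table. The core TGACG was found in 5 of the 8, against 20.8% of all promoters. Fos held it 2 times, starting 129 and 66 bases before the start, Fosb and Junb held it 1 time each, and Nr4a1 held it 4 times. In Btg2 both cores lie inside the full element. The AP-1 site, TGACTCA or TGAGTCA, and the CArG box bound by SRF were found in 0 of the 8, against 5.20% and 1.63% of all promoters. A match is a description of the letters in this window only, and the lack of a match says nothing of sequence outside it.

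The arrays numbered 3 stood apart in their RNA spike-in controls. The median spike-in intensity was 12330 on ChAT_positive array 3, against 31186 to 35604 on the other ChAT_positive arrays. On ChAT_negative array 3 it was 6672, against 15952 to 19885 on the other ChAT_negative arrays. Array 3 had the lowest signal of its group for 9 of 10 spike-in probes in ChAT_positive and 10 of 10 in ChAT_negative. Calls below are therefore also given without both arrays numbered 3. The spike-in intensities, taken before scaling, also split by group. With the arrays numbered 3 set aside, every ChAT_positive median lay above every ChAT_negative median. Array 3 was likewise higher in ChAT_positive. Each group had its own slide and scan, and the bearing of this split on the fold changes was not tested.

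On the arrays, 2 of the 10 genes passed the test, and both were lower in ChAT_positive cells: Fosl2, which encodes the AP-1 subunit FRA-2, and Btg2, an antiproliferative gene whose product recruits the CCR4-NOT deadenylase to messenger RNA. Signals are given as log2 of the processed probe intensity minus the 75th percentile of the same array, so that 0 is the brightness at that percentile. Levels of different probes are not set against each other, because probes differ in how brightly they hybridise. Fold changes are log2 differences, ChAT_positive minus ChAT_negative, and a gene is called at a limma adjusted p under 0.05 over all 13607 genes. No member was called higher by limma. Without adjustment, at p under 0.05, 4 members were lower (against 11.9% of all genes) and 0 higher (against 12.9%). Over all genes, 3.15% were called lower and 2.81% higher, which gives 428 and 383 genes. The mean was lower in ChAT_positive cells for 9 of the 10 members, against 46.9% of all genes. Their median log2 fold change was -0.44, against 0.026 over all genes. The members were chosen with earlier results of these data known, so these comparisons with all genes describe the members and are no test of them.

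**Figure D1:**
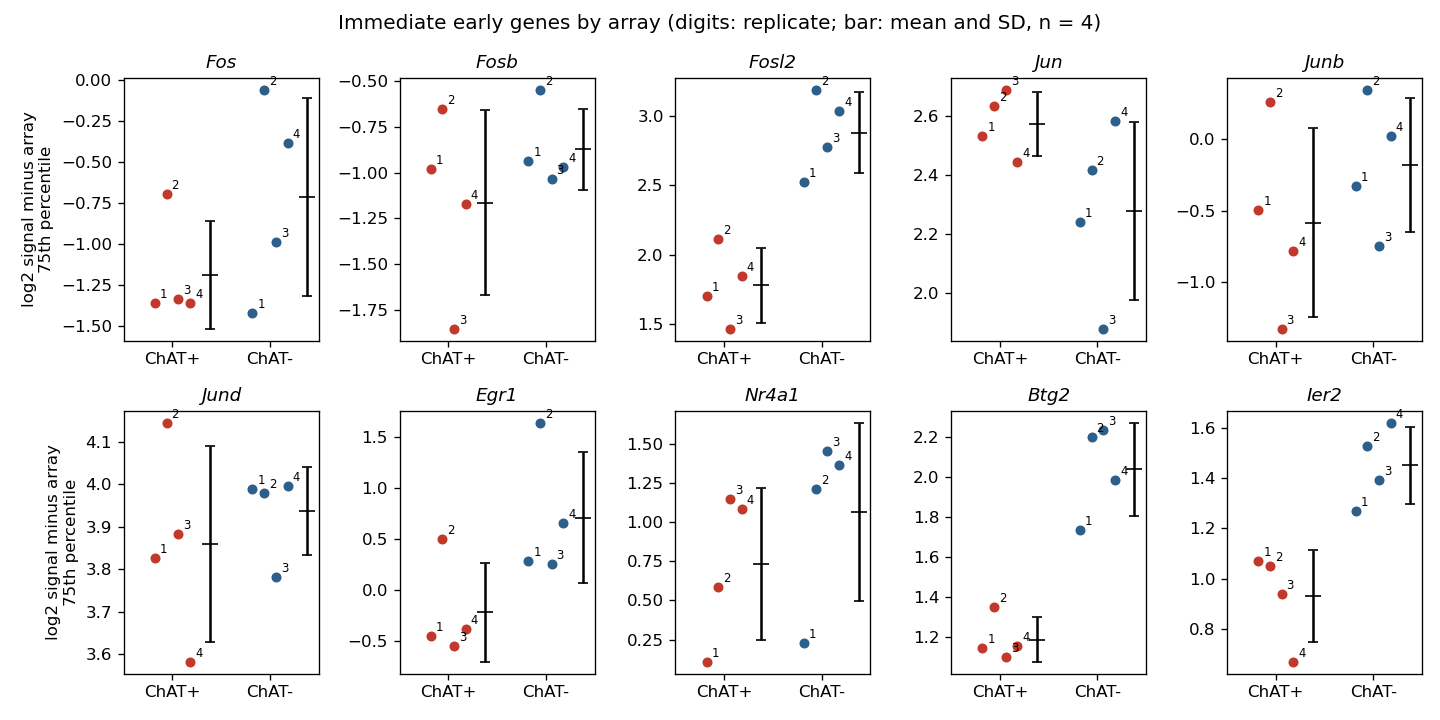
Signal of each of the 10 immediate early genes on every array (vertical axes, log2 processed intensity minus the 75th percentile of the array), with ChAT_positive pools on the left of each panel and ChAT_negative pools on the right. Digits are replicate numbers, and the bars are the mean and SD of 4 arrays. The groups do not overlap for Fosl2, Btg2 and Ier2.

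Among the FOS family genes, Fosl2 differed most clearly. By the brighter of its 2 probes, its log2 signal was 1.70, 2.11, 1.47 and 1.84 in ChAT_positive pools 1 to 4, against 2.52, 3.18, 2.78 and 3.03 in ChAT_negative pools 1 to 4. Every ChAT_positive pool lay below every ChAT_negative pool. The means were 1.78 ± 0.27 in ChAT_positive and 2.88 ± 0.29 in ChAT_negative cells (SD, n = 4 each), and the log2 fold change of -1.10 had an SE of 0.19 and a limma adjusted p of 0.0176. That is a signal 2.14-fold lower in ChAT_positive cells, with a 95% interval of 1.60 to 2.88. The other Fosl2 probe read -0.40, 0.060, -0.91 and -0.45 in the ChAT_positive pools, against 0.57, 1.05, -0.35 and 0.12 in the ChAT_negative pools. Its groups overlapped in part and differed by -0.77, which was not called when each probe was tested on its own (adjusted p = 0.195, against 0.0296 for the brighter probe). The Fosl2 call was lost without ChAT_positive pool 3 (adjusted p = 0.0516) and without ChAT_negative pool 4 (adjusted p = 0.0588). With both arrays numbered 3 left out, its adjusted p was 0.104.

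Fos, the founding member of the family and a partner of the JUN proteins, did not pass the test. Its log2 signal was -1.36, -0.70, -1.34 and -1.36 in ChAT_positive pools 1 to 4, against -1.42, -0.064, -0.99 and -0.39 in ChAT_negative pools 1 to 4. The groups overlapped: the lowest value of all belonged to ChAT_negative pool 1, and pool 2 was the highest of each group. The means were -1.19 ± 0.33 in ChAT_positive and -0.72 ± 0.61 in ChAT_negative cells (SD, n = 4 each), a log2 fold change of -0.47 (95% interval -1.15 to 0.20, adjusted p = 0.361). An exact two-sided permutation test of the 8 Fos values gave p = 0.257 (0.257 after Benjamini-Hochberg adjustment over the 2 genes so tested, Fos and Jun), and 0.0286 is the smallest p that 4 against 4 arrays allow. Fosb, whose protein likewise pairs with JUN proteins, read -0.98, -0.65, -1.85 and -1.17 in the ChAT_positive pools, against -0.94, -0.55, -1.04 and -0.97 in the ChAT_negative pools. ChAT_positive pool 3 was the lowest array and the groups overlapped, with a log2 fold change of -0.29 (95% interval -0.84 to 0.26, adjusted p = 0.503).

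None of the 3 JUN family genes passed the test. Jun, which can form AP-1 with itself or with a FOS protein, read 2.53, 2.63, 2.69 and 2.44 in ChAT_positive pools 1 to 4, against 2.24, 2.41, 1.88 and 2.58 in ChAT_negative pools 1 to 4. It was the 1 member with a higher mean in ChAT_positive cells, yet ChAT_negative pool 4 stood above ChAT_positive pools 1 and 4. The log2 fold change of Jun was 0.29 (95% interval -0.071 to 0.66, limma adjusted p = 0.296), and the exact permutation test gave p = 0.114 (0.229 after adjustment over the same 2 genes). Junb, whose protein forms AP-1 dimers that activate less strongly than those of JUN at many targets, read -0.49, 0.26, -1.32 and -0.78 in the ChAT_positive pools, against -0.33, 0.34, -0.75 and 0.018 in the ChAT_negative pools. Pool 2 was the highest and pool 3 the lowest in both groups, which overlapped (log2 fold change -0.40, 95% interval -1.18 to 0.37, adjusted p = 0.508). Jund, the family member that most cells transcribe at rest, read 3.83, 4.14, 3.88 and 3.58 in the ChAT_positive pools, against 3.99, 3.98, 3.78 and 4.00 in the ChAT_negative pools. These ranges overlapped, and the log2 fold change of -0.078 had a 95% interval of -0.39 to 0.24 (adjusted p = 0.772), with a value of 0.14 when arrays were scaled to their medians.

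Egr1, a zinc finger transcription factor, had a lower mean in ChAT_positive cells but was not called. Its log2 signal was -0.45, 0.50, -0.55 and -0.38 in ChAT_positive pools 1 to 4, against 0.29, 1.63, 0.26 and 0.66 in ChAT_negative pools 1 to 4. Pool 2 was the highest array of each group, and ChAT_positive pool 2 alone reached into the ChAT_negative range. The means were -0.22 ± 0.49 in ChAT_positive and 0.71 ± 0.64 in ChAT_negative cells (SD, n = 4 each), a log2 fold change of -0.93 (95% interval -1.70 to -0.15, limma adjusted p = 0.138). With both arrays numbered 2 left out, an alternative chosen after seeing the data, Egr1 was called lower at an adjusted p of 0.0356. Nr4a1, the nuclear receptor NUR77 that antigen receptor signals induce in lymphocytes, read 0.11, 0.58, 1.15 and 1.09 in the ChAT_positive pools, against 0.23, 1.21, 1.45 and 1.37 in the ChAT_negative pools. Pool 1 was the lowest and pool 3 the highest in both groups, and the groups overlapped (log2 fold change -0.33, 95% interval -1.06 to 0.39, adjusted p = 0.558).

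The remaining members, Btg2 and Ier2, varied little within a group. Btg2 read 1.15, 1.35, 1.10 and 1.16 in ChAT_positive pools 1 to 4, against 1.74, 2.20, 2.23 and 1.98 in ChAT_negative pools 1 to 4. No ChAT_positive pool reached the ChAT_negative range. The means were 1.19 ± 0.11 in ChAT_positive and 2.04 ± 0.23 in ChAT_negative cells (SD, n = 4 each), and the log2 fold change of -0.85 had an SE of 0.14 and a limma adjusted p of 0.0155. The signal was 1.80-fold lower in ChAT_positive cells (95% interval 1.44 to 2.25). The Btg2 call was lost without ChAT_positive pool 3 (adjusted p = 0.0519), and the adjusted p was 0.110 without both arrays numbered 3. Ier2, a nuclear protein induced by growth factors, read 1.07, 1.05, 0.94 and 0.67 in the ChAT_positive pools, against 1.27, 1.53, 1.39 and 1.62 in the ChAT_negative pools. Its groups did not overlap, but its log2 fold change of -0.52 (SE 0.14, 95% interval -0.83 to -0.21) missed the threshold at an adjusted p of 0.0579. Groups that did not overlap, with ChAT_positive lower, were seen for 3 members and for 6.14% of all genes. The opposite, with ChAT_positive higher, was seen for 0 members and for 9.37% of all genes.

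**Figure D2:**
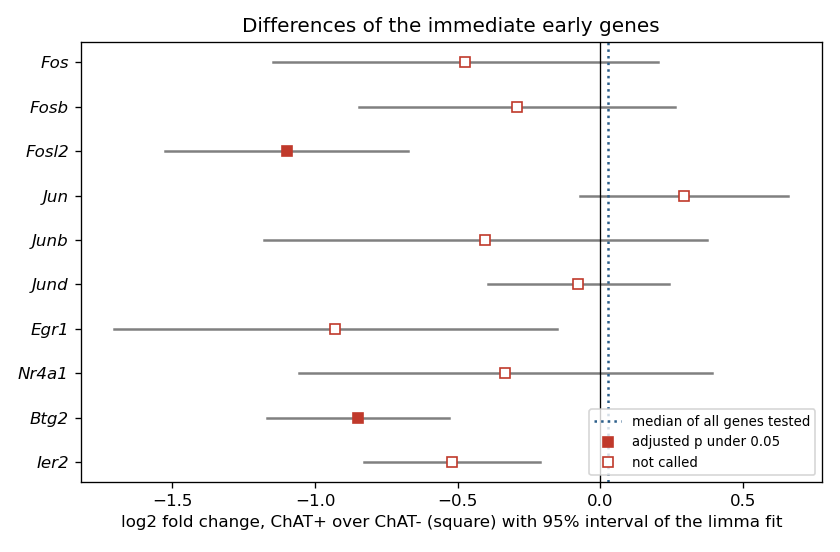
Log2 fold change of each immediate early gene, ChAT_positive over ChAT_negative (horizontal axis, squares), with its 95% interval from limma. Filled squares mark Fosl2 and Btg2, called at an adjusted p under 0.05, and the dotted line is the median of all genes tested, 0.026.

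Both calls were kept under quantile normalization and lost under another scaling. With each array scaled to its median, the median log2 fold change of all genes moved to 0.24, the calls over all genes became 211 higher and 119 lower, and no member was called (Fosl2 adjusted p = 0.0513, Btg2 adjusted p = 0.128). The percentile scaling used for the calls above and the median scaling each take a constant off each array, so these scalings shift all genes alike. Values relative to the median of all genes therefore could not differ between them (-1.13 for Fosl2, -0.87 for Btg2 and -0.10 for Jund). Their equality is no check of the calls. Each group's 4 arrays shared 1 slide and 1 scan, so slide and group cannot be told apart.

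The members differed in how far arrays of the same group lay apart. The SD within groups was 0.57 for Junb and Egr1, 0.53 for Nr4a1 and 0.49 for Fos, at percentiles 86.3 to 90.4 of all genes, whose median was 0.24. It was 0.18 for Btg2 and Jund and 0.17 for Ier2, at percentiles 25.4 to 29.9. Array 2 was the highest of its group in both groups for 5 members, Fos, Fosb, Fosl2, Junb and Egr1, against 17.1% of all genes. Array 3 was the lowest in both groups for Fosb, Junb and Egr1, against 10.6% of all genes. Nr4a1 had a pattern of its own, with array 1 lowest and array 3 highest in both groups. Most of the 10 summed marker signals were also at an extreme of their group on arrays numbered 2. Of all genes, 17.1% were the highest and 13.3% the lowest of both groups on these arrays. There 5 sums were the highest of both groups: NK cell (200.2 in ChAT_positive, 242 in ChAT_negative cells), T cell (27.2 in ChAT_positive, 22.6 in ChAT_negative cells), innate lymphoid and NKT cell (32.4 in ChAT_positive, 30.9 in ChAT_negative cells), monocyte and macrophage (13.8 in ChAT_positive, 18.2 in ChAT_negative cells) and dendritic cell (41.7 in ChAT_positive, 44.9 in ChAT_negative cells). The sums lowest in both groups were 3: basophil and mast cell (0.891 in ChAT_positive, 9.11 in ChAT_negative cells), neutrophil (3.07 in ChAT_positive, 20.5 in ChAT_negative cells) and platelet (8.54 in ChAT_positive, 14.0 in ChAT_negative cells). The part of these cells in the array differences was not tested.

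**Figure D3:**
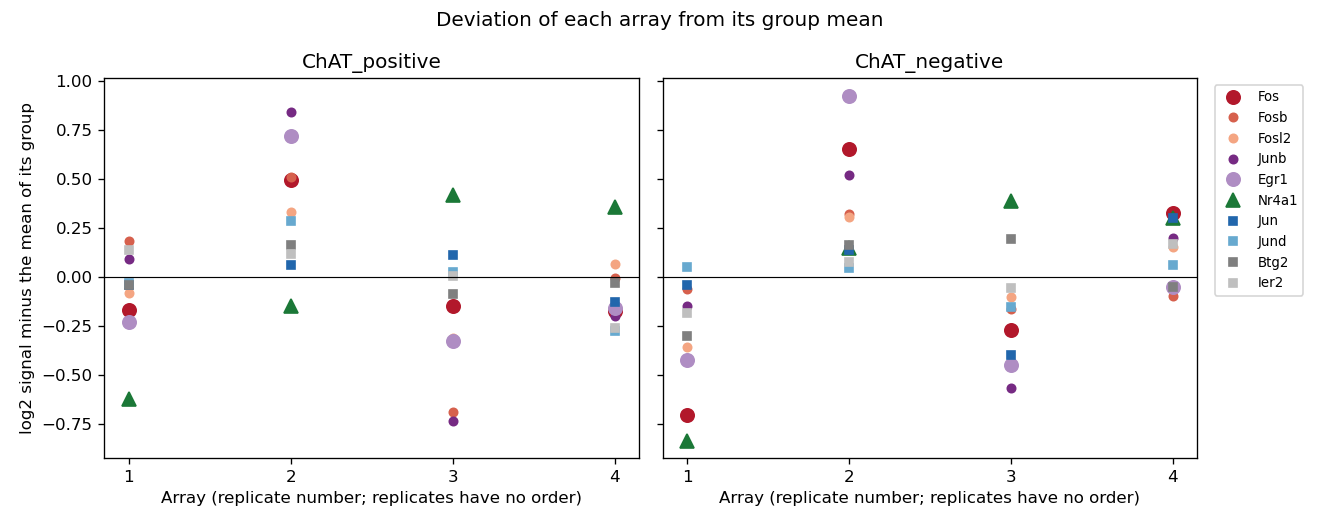
Deviation of each array from the mean of its own group (vertical axis, log2 signal) for the 10 immediate early genes, with ChAT_positive arrays in the left panel and ChAT_negative arrays in the right. Fos, Fosb, Fosl2, Junb and Egr1 (circles) are highest on array 2 of both groups, while Nr4a1 (triangles) is lowest on array 1 and highest on array 3.

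The profile of Fos over the 8 arrays, after its own mean was taken off, was closest to that of Gna15, with a root mean square difference of 0.106 on the log2 scale, among the 13606 other genes tested. Slc9a9 (0.137), Slc41a2 (0.159), Adam21 (0.164) and Bcr (0.165) came next. The nearest member was Egr1, at rank 376 (0.322), and the farthest was Jun, at rank 5922. For Jun the closest genes were Nadsyn1 (0.0881), Dhx34 (0.0949), Tbc1d1 (0.0970), Acsf3 (0.0979) and Arid3b (0.101), and the nearest member was Jund, at rank 3434 (0.248).

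Of 26 further immediate early genes, 21 were tested and limma called 0 in either direction. Without adjustment, at p under 0.05, 6 of them had lower and 1 had higher signal in ChAT_positive cells, against 11.9% and 12.9% of all genes. The median log2 fold change of the 21 was -0.092. The brightest of them were Gadd45b, a stress-induced regulator of MAP kinases, at -0.015 (adjusted p = 0.959), and the zinc finger gene Klf6, at 0.066 (adjusted p = 0.842). The sign of the Gadd45b value changed under median scaling, where it was 0.20.

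Among bZIP genes whose proteins pair or compete with AP-1, 2 of 12 tested were called, both higher in ChAT_positive cells. Over all genes, 2.81% were called higher. Bach2, a repressor that works with small MAF proteins, averaged 2.63 ± 0.19 in ChAT_positive and 1.95 ± 0.21 in ChAT_negative cells (log2 signal, SD, n = 4 each), or 0.67 higher on the log2 scale (SE 0.15, adjusted p = 0.0368). Maf, which encodes the transcription factor c-MAF, averaged 1.84 ± 0.27 in ChAT_positive and 1.24 ± 0.068 in ChAT_negative cells, a log2 fold change of 0.60 (adjusted p = 0.0489). B cells also transcribe Bach2, and 5 of 10 B cell markers were called higher, with sums of 93.2 to 123 in ChAT_positive and 59.4 to 79.6 in ChAT_negative cells; their part in the Bach2 result was not tested. The median of the 12 genes was 0.011.

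Upstream of the immediate early genes, 20 regulators of the SRF, CREB and MAP kinase routes gave 0 calls by limma. Over all genes, 3.15% were called lower and 2.81% higher. Without adjustment, at p under 0.05, 2 of the 20 were higher and 0 lower, against 12.9% and 11.9% of all genes. The median of these regulators was 0.013. The brightest were Elk1, an SRF partner, at -0.088 (adjusted p = 0.767), and the CREB relative Crem, at -0.17 (adjusted p = 0.566), and both values were above 0 under median scaling. Of 16 feedback regulators that damp these signals, 1 was called. Dusp5, a nuclear phosphatase that switches off ERK, fell in ChAT_positive cells, where it read 0.11, 0.24, 0.15 and -0.17, against 0.38, 1.09, 1.08 and 1.08 in the ChAT_negative pools. The groups of Dusp5 did not overlap (log2 fold change -0.83, SE 0.19, adjusted p = 0.0380). Without adjustment, 6 feedback regulators had p under 0.05 with lower and 2 with higher signal, against 11.9% and 12.9% of all genes. The median of the feedback list was -0.23.

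Of 18 genes that activated lymphocytes express, 1 was called higher and 1 lower, against 2.81% and 3.15% of all genes. Without adjustment, at p under 0.05, 4 of the 18 were lower and 2 higher, against 11.9% and 12.9% of all genes. The mean was lower in ChAT_positive cells for 11 of the 18 and higher for 7, and their median was -0.10. Rel, the NF-kappaB subunit c-REL, averaged 1.38 ± 0.11 in ChAT_positive and 0.81 ± 0.13 in ChAT_negative cells (log2 signal, SD, n = 4 each), or 0.58 higher on the log2 scale (SE 0.12, adjusted p = 0.0291). Rgs2, which shortens signals from Gq-coupled receptors, averaged 3.80 ± 0.094 in ChAT_positive and 4.29 ± 0.15 in ChAT_negative cells, a log2 fold change of -0.49 (adjusted p = 0.0478). Over the 14 other settings that kept all arrays, the log2 fold change of Rgs2 ran from -1.16 to -0.27. Of 11 heat shock genes, which handling stress also induces, 1 was called: Hsph1, a partner of the HSP70 chaperones, was higher at 0.48 (SE 0.11, adjusted p = 0.0421). Without adjustment, at p under 0.05, 1 heat shock gene was higher and 1 lower. The lower gene was Hspa1a, at -1.10 (limma adjusted p = 0.153). The mean was higher in ChAT_positive cells for 7 of the 11 and lower for 4, and their median was 0.029. All 6 calls in these lists were lost under median scaling (adjusted p 0.0513 for Maf to 0.420 for Rgs2), with no filter on dim probes (0.0748 for Rel to 0.109 for Rgs2), and without both arrays numbered 3. None of the 6 held in every fit with 1 array left out. Rgs2 lost its call without any 1 of the 8 arrays (adjusted p up to 0.124). Bach2 kept it only without ChAT_positive pool 2 (otherwise up to 0.101), Maf only without ChAT_positive pool 3 (up to 0.117), Hsph1 only without ChAT_positive pool 4 (up to 0.117) and Dusp5 only without ChAT_negative pool 1 (up to 0.105). Rel kept it only without ChAT_positive pool 2 or ChAT_negative pool 1 (up to 0.0887).

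**Figure D4:**
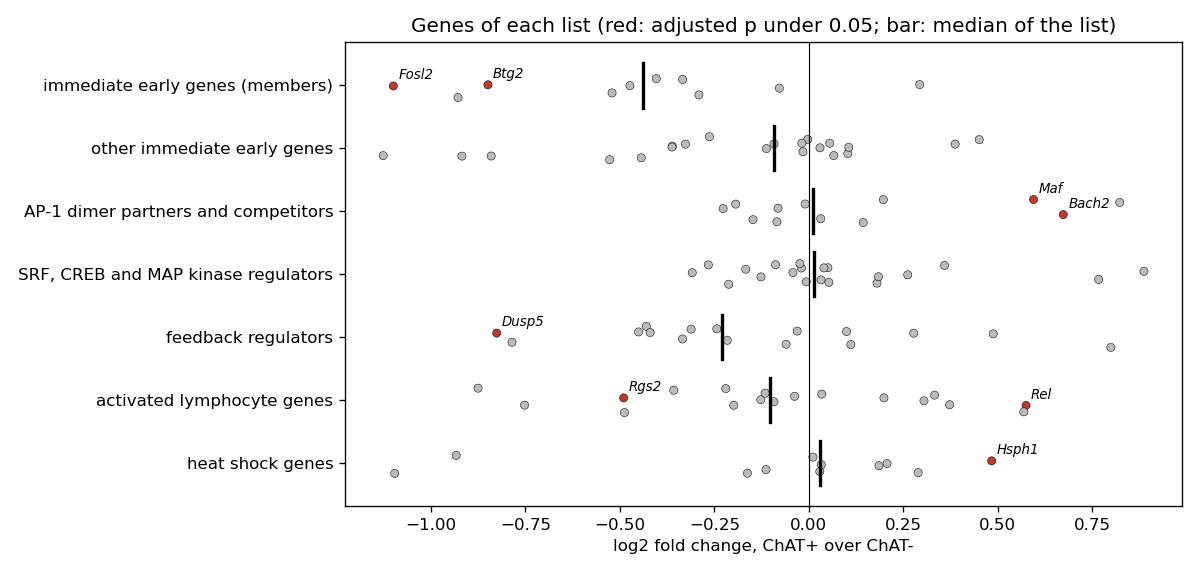
Log2 fold changes, ChAT_positive over ChAT_negative (horizontal axis), of the tested genes in each list, with called genes in red and the median of each list as a bar. The 10 immediate early genes have a median of -0.44, and the medians of the other lists lie between -0.23 and 0.029.

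Facts of the whole data set bear on these values. Chat, the gene behind the sort, averaged 3.75 ± 0.25 in ChAT_positive and 2.65 ± 0.34 in ChAT_negative cells (log2 signal, SD, n = 4 each), a log2 fold change of 1.10 (adjusted p = 0.0201), and it was well above background in both groups; this call was lost without ChAT_positive pool 3 (adjusted p = 0.0623), without ChAT_negative pool 4 (adjusted p = 0.0646) and without both arrays numbered 3 (adjusted p = 0.118). All 10 NK cell markers, the defining genes of the labelled cell type, were above background, and 3 were called lower in ChAT_positive cells (Klrb1c at -1.60), with summed signals of 134 to 200 in ChAT_positive and 204 to 242 in ChAT_negative cells. The mean was lower for 9 of the 10 NK cell markers, against 46.9% of all genes. Before adjustment, at limma p under 0.05, 7 NK cell markers were lower and 0 higher, and 7 of 10 B cell markers were higher and 0 lower. Beside the 5 B cell markers called, 3 of 10 markers of other innate lymphoid and NKT cells were higher (Il17rb at 2.52), while 0 of 10 T cell markers were called (Cd3d at 0.057) by limma, with 1 higher before adjustment at p under 0.05. Lower in ChAT_positive cells were 5 of 7 basophil and mast cell markers, 2 of 9 neutrophil, 2 of 6 erythroid (Hba-a1 at -2.27), 2 of 8 platelet (Clec1b at -2.22) and 2 of 7 dendritic cell markers (Itgax at -1.31), and Cd200r3 of basophils, Retnlg of neutrophils and Clec9a of dendritic cells were not well above background on any ChAT_positive array. Cd200r3, Retnlg and Clec9a therefore passed the filter on dim probes only through the ChAT_negative arrays. With the filter at 8 of 8 arrays, lower calls were 3 of 4 basophil and mast cell, 1 of 6 neutrophil and 1 of 6 dendritic cell markers. They were 2 of 4 for erythroid and 3 of 8 for platelet markers. Of 7 monocyte and macrophage markers limma called 0, against 2 lower and 1 higher before adjustment at p under 0.05 (Ccr2 at -0.59). Over all genes, limma called 3.15% lower and 2.81% higher, against 11.9% and 12.9% before adjustment. Summed basophil signals were 0.891 to 3.79 in ChAT_positive and 9.11 to 43.3 in ChAT_negative cells. Neutrophil sums were 3.07 to 35.5 in ChAT_positive and 20.5 to 60.3 in ChAT_negative cells. Erythroid sums were 11.1 to 13.5 in ChAT_positive and 18.7 to 26.5 in ChAT_negative cells, and platelet sums were 8.54 to 12.7 in ChAT_positive and 14.0 to 27.1 in ChAT_negative cells. Sums of T cell markers (14.9 to 27.2 in ChAT_positive, 15.2 to 22.6 in ChAT_negative cells), innate lymphoid and NKT cell markers (23.0 to 32.4 in ChAT_positive, 23.3 to 30.9 in ChAT_negative cells) and dendritic cell markers (29.2 to 41.7 in ChAT_positive, 29.0 to 44.9 in ChAT_negative cells) overlapped between the groups. Monocyte and macrophage sums were 9.61 to 13.8 in ChAT_positive and 13.9 to 18.2 in ChAT_negative cells. With 1 array left out, the lower calls ranged from 2 to 7 for basophils and from 0 to 2 for neutrophils, and without both arrays numbered 3 no marker list had more than 1 call. The called markers differed between the sorted groups, while the T cell and the monocyte and macrophage lists gave 0 calls. The part of any of these cell types in the immediate early gene values was not tested. In pooled cells, fewer cells of a type and less RNA per cell cannot be told apart.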

How the data were processed

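RNA of 8 pools was hybridised to one-colour (Cy3) Agilent arrays, and per the labels' protocols an in vitro transcription step amplified it first. Spot intensities in the deposited scanner files are linear, and Agilent Feature Extraction 11.5.1.1 had background-subtracted them within each array, without scaling between arrays, per the file headers. The authors' deposited value table holds log2 values of 31942 probes, with column medians of -0.72 to -0.63. Each column differed from the log2 values used here by a constant of 0.0023 to 0.0065, so it has no centring per gene and runs the same way. No source used here says how its probes were chosen. Every column had a sample.

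Control spots and 1344 spot values marked as outliers were left out, spots of a probe were averaged, and the 75th percentile of each array was taken off log2 of the processed intensity. A probe was kept if 4 or more of the 8 arrays read it well above background (32086 probes), and the brightest probe stood for a gene. A total of 26762 probes were named through RefSeq accessions of GRCm38.p6, and 28919 were not named here. Between 50.2% and 63.2% of spots were well above background and 0 were saturated, and precision is limited by there being 8 arrays.

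The comparison of ChAT_positive with ChAT_negative used limma 3.58.1 under R 4.3.3, by eBayes after lmFit, as a two-sided test with Benjamini-Hochberg adjustment over all genes tested, with no block, and the code was tested on simulated data. Alternatives changed the scaling, background correction, filter, probe rule, variance model, block and arrays included. The members and gene lists were chosen with earlier results of these data known. Every member was named, with the called genes of each pathway list or its 2 brightest where none was called, and 1 gene per marker list.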

Additional observations from a re-analysis of the deposited data

Results flagged for a closer look

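In 3 of 22 sets of 1 member probe in 1 group, a single array lay far from the other 3. The rule used marks about 1 in 20 sets of independent, normally distributed values. Its rate over all genes was not computed, and sets that share arrays are not independent. Fos in ChAT_positive pool 2 read -0.695, against -1.34 for the nearest of the other ChAT_positive pools. Egr1 in the same pool read 0.50, against -0.38 for the nearest. Jund in ChAT_negative pool 3 read 3.78, against 3.98 for the nearest. All values are log2 signals relative to the 75th percentile of the array. The causes were not tested.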

How the results depend on the processing

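In the 14 settings that kept all 8 arrays, no member was called higher, and 12 of them called between 2 and 3 members lower. Median scaling called 0 lower and 330 genes in all. The replicate block called 4 lower (Btg2, Egr1 at an adjusted p of 0.00478, Fosl2 and Ier2) and 2342 genes in all, against 811 without it. The labels do not say what the replicate numbers share: deviations of same-numbered arrays correlated at 0.54, 0.66, 0.52 and 0.032 over genes, and 6 of 8 arrays correlated best with their own number. Without a filter on dim probes 223 genes were called, and at an adjusted p under 0.1 there were 1705. With 1 array left out, 0 to 2 members were called lower, 0 higher, and 210 to 704 genes were called. Without both arrays numbered 3 the counts were 0 members and 56 genes, and without both numbered 2, chosen after seeing the data, 3 members and 535 genes. Over the settings with all arrays the adjusted p ran from 0.00289 to 0.0513 for Fosl2, from 0.00388 to 0.128 for Btg2 and from 0.0350 to 0.393 for Ier2. The slide and scan could not be used as a block, since each group had its own.

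Some values that were not called changed sign. Under median scaling Jund was 0.14, Gadd45b 0.20, Elk1 0.13 and Crem 0.050, and under quantile normalization Gadd45b was 0.065 and Elk1 0.020. Crem was 0.10 with probes averaged, and with array weights Gadd45b was 0.0057 and Cd3d -0.074. Cd3d was -0.076 without both arrays numbered 2. With 1 array left out, Jund ranged from -0.17 to 0.014, Gadd45b from -0.054 to 0.077, Elk1 from -0.22 to 0.0021, Klf6 from -0.054 to 0.17 and Cd3d from -0.19 to 0.23. The causes of these changes were not tested.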

Other observations

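Among the further immediate early genes, 4 of the 21 tested had groups that did not overlap, with ChAT_positive lower, against 6.14% of all genes. None of the 4 was called, and they are named here after their values were seen. Egr2, a zinc finger relative of Egr1, differed by -1.13 on the log2 scale (SE 0.28, limma adjusted p = 0.0504). Fosl1, the FOS relative FRA-1, had -0.92 (SE 0.24, adjusted p = 0.0557), and Arc, best known in neurons, had -0.84 (SE 0.27, adjusted p = 0.0958). Sik1, a salt-inducible kinase, had -0.33 (SE 0.13, adjusted p = 0.167). Over the 14 settings that kept all arrays the adjusted p ran from 0.0168 to 0.104 for Egr2, from 0.0226 to 0.137 for Fosl1 and from 0.0455 to 0.232 for Arc.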
